A study of Homo sapiens with 6 samples.

Results

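The 10 genes described here encode the enzymes that write, maintain and remove DNA methylation and the core of Polycomb repressive complex 2 (PRC2). They were taken by symbol from the gene table, which lists 58735 genes, and comprise DNMT1, DNMT3A, DNMT3B, UHRF1, TET1, TET2, TET3, EZH2, SUZ12 and EED. All 10 were present once and all passed the filter on low counts, which kept 15242 genes. RNA had been sequenced from MDA-MB-231 cells, an established triple-negative breast cancer (TNBC) line, in 3 libraries (MB_parent, genotype given as WT) and from Adriamycin-resistant derivatives of the line in 3 libraries (MB_ADR12, genotype given as ADR resistant, called ADRr below). Adriamycin (ADR, doxorubicin) is an anthracycline that poisons topoisomerase II and intercalates into DNA. Both groups were grown in DMEM with serum and antibiotics. The study's methods describe stepwise selection of ADRr cells in rising ADR followed by limiting dilution to single clones, so the ADRr group stands for clonal derivatives of 1 line. Whether drug was present at harvest is not given in the sources used here. The series record speaks of 3 time points that no sample label names. Nothing states that the libraries of a group came from separate cultures, so the p-values measure the spread between these libraries only, which may be technical.

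DNA methylation is copied to new DNA strands by DNMT1, which UHRF1 brings to hemimethylated CpG sites behind the replication fork, while DNMT3A and DNMT3B place methylation at new sites. The TET enzymes oxidize methylated cytosine and so start its removal. PRC2, built on EZH2, SUZ12 and EED, methylates histone H3 at K27 and keeps developmental genes silent, and its genes, like UHRF1 and DNMT1, are known targets of E2F factors in dividing cells.

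Total counts ranged from 15983985 to 18272314 per library. Levels are given as CPM, counts scaled by library size. A gene with 0 counts could have a level of at most 3 counts, which was 0.164 to 0.188 CPM depending on the library and covers counting error only. Across tested genes, Pearson's r between libraries was 0.989 to 0.993 within a group and 0.935 to 0.937 between groups. All 8 genes chosen as marks of MDA-MB-231 cells, such as VIM and CD44, were expressed. They summed to 5975 to 6114 CPM in parent and 5522 to 5568 CPM in ADRr libraries. By the test described below, 5 of them were lower in ADRr cells (62.5%), KRT7 and CAV1 most. EGFR and CD44 were higher (25%). Over all tested genes these shares were 29.6% and 29.2%. Of 8 luminal genes, the hormone receptor genes ESR1 and PGR had at most 1 count in any library and FOXA1 at most 2, while KRT19, ERBB2, GATA3, CDH1 and EPCAM were expressed, and the list summed to 290 to 345 CPM in parent and 163 to 174 CPM in ADRr libraries. Of the 12 leukocyte genes, CD14 had 78 to 133 counts (5.91 CPM in parent and 5.31 CPM in ADRr cells on average), PTPRC had at most 2 counts and TYROBP none. The list summed to 5.05 to 7.85 CPM in parent and 5.67 to 6.60 CPM in ADRr libraries. The 8 fibroblast genes summed to 93.5 to 98.2 CPM in parent and 28.4 to 31.2 CPM in ADRr libraries, with DCN at 0. PDGFRB made 62.7 CPM of this in parent and 8.38 CPM in ADRr cells, and COL1A1 28.0 and 18.2 CPM. The 6 endothelial genes summed to 3.28 to 5.35 CPM and 8.62 to 9.67 CPM, with CDH5 at no more than 2 counts.

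Promoter windows were read from RefSeq (GRCh38.p14, 250 bases before to 50 bases after each annotated start) because E2F factors are known to act on several of these genes. The windows were searched on both strands for the E2F words TTCCCGC and TTGGCGC and their variants TTCGCGC and TTGCCGC. Of 22 windows for the 10 genes, 6 held such a word. They belonged to 5 genes, of which UHRF1, DNMT1, EZH2 and SUZ12 were lower and TET3 was higher in ADRr cells. The words stood in 13.0% of all 35116 windows and in 18.8% of the 15184 windows of tested genes. In a list of replication genes, 26 of 35 windows held one. These windows covered 30 genes of that list, of which 25 had a word. No share by gene was taken over all tested genes. For the 5 genes, the stretch from 200 bases before to 15 bases after the start is shown 5′ to 3′ on the gene's strand, with the E2F words of either strand in capitals. The stretches lie at chr19:4909301-4909515 (plus strand, UHRF1), chr19:10194939-10195153 (minus strand, DNMT1), chr7:148884277-148884491 (minus strand, EZH2), chr17:31936807-31937021 (plus strand, SUZ12) and chr2:73984710-73984924 (plus strand, TET3).
UHRF1: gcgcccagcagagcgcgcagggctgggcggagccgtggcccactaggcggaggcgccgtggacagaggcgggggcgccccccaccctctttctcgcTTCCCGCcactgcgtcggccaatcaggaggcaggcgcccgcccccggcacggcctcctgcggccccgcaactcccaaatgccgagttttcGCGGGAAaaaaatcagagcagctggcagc
DNMT1: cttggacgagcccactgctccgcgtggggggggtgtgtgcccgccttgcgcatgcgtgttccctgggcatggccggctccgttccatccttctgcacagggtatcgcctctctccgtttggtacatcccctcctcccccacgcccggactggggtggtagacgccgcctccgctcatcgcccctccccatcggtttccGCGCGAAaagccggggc
EZH2: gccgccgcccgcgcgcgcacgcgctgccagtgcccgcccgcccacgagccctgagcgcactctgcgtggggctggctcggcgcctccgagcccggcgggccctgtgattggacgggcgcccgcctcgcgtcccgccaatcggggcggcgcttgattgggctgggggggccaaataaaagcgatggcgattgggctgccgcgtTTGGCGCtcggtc
SUZ12: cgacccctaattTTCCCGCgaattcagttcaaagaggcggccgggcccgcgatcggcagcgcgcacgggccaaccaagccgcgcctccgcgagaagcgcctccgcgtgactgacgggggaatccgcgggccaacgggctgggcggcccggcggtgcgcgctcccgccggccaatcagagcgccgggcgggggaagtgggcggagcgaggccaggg
TET3: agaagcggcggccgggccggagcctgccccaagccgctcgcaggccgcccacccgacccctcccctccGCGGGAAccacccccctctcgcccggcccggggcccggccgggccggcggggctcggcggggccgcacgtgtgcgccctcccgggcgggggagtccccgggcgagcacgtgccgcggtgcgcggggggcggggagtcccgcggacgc

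In UHRF1 the words began 104 and 14 bases before the start, and a second annotated start of this gene had another word at 159 bases before it. In DNMT1 the word began 2 bases before the start, and in EZH2 it began 2 bases after it. SUZ12 and TET3 carried theirs farther out, at 188 and 132 bases before the start. The printed stretches of these genes were rich in CpG. Their full windows held 36 CpG sites in UHRF1, 30 in DNMT1, 46 in EZH2, 40 in SUZ12 and 45 in TET3, against a median of 14 over all windows. The single DNMT3B window held 3 CpG sites and the EED window 16, and neither held an E2F word. This DNMT3B window lies at chr20:32779602-32779901, inside the gene, whose annotated start on the plus strand is at 32762385. The DNMT1 and UHRF1 windows also lie inside the genes as counted. DNMT1 starts at 10231286 on the minus strand, and its window lies at chr19:10194904-10195203. UHRF1 starts at 4903080 on the plus strand, and its first window begins at 4909251. The sequences at these outer starts were not searched. A match in these letters is a description of the window and no measure of binding.

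Most of the 10 genes had less RNA in ADRr than in parent cells. Genes were called with edgeR's quasi-likelihood test where the Benjamini-Hochberg adjusted p did not exceed 0.05 and the fold change reached 1.2. UHRF1, SUZ12, DNMT3B, EZH2, EED, DNMT1 and TET1 fell (7 genes), TET3 and DNMT3A rose (2 genes), and TET2 was not called. The background was wide, since 58.8% of all tested genes were called, 29.6% lower and 29.2% higher. The ADRr libraries lay wholly below the parent libraries for 7 of the 10 genes, against 34.7% of tested genes, and wholly above for 2, against 34.5%. For 9 of the 10 the groups did not overlap, as for 69.2% of tested genes. The median log2 fold change was -0.72 over the 10 genes and -0.01 over all tested genes.

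**Figure D1:**
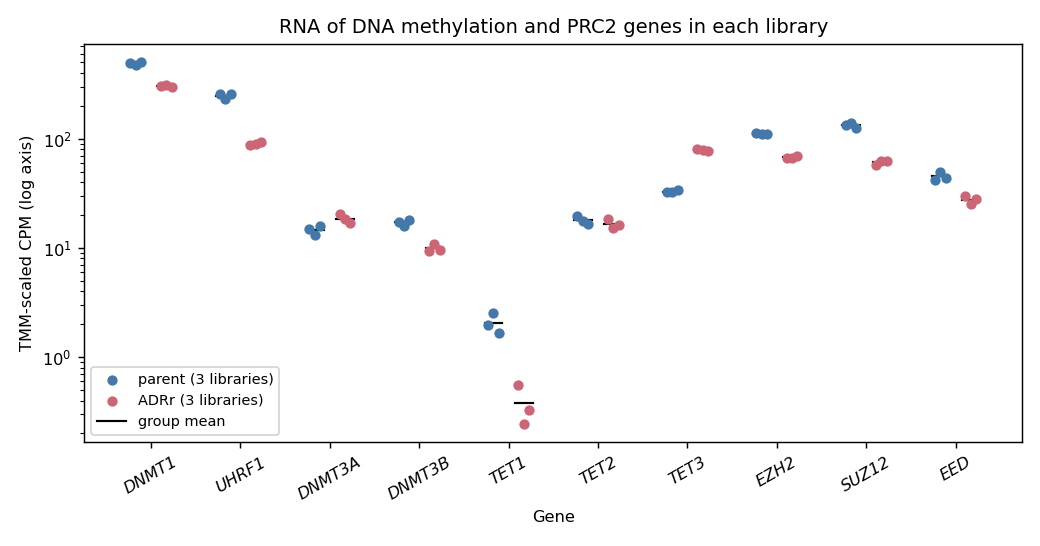
Level of each of the 10 genes in every library, as TMM-scaled CPM (log axis), with 3 parent libraries in blue, 3 ADRr libraries in red and a bar at each group mean. The groups overlap for TET2 alone, TET3 and DNMT3A are higher in ADRr cells, and TET1 lies far under the other genes at 0.244 to 2.53 CPM.

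DNMT1, the maintenance methyltransferase, was the most abundant of the 10 genes. Its level was 496, 471 and 503 CPM in parent replicates 1 to 3 and 304, 313 and 299 CPM in ADRr replicates 1 to 3. Every ADRr library was therefore well under every parent library. The log2 fold change was -0.68 (SE 0.048, 95% interval -0.78 to -0.58, edgeR adjusted p = 4.8e-12), or 1.60-fold lower. UHRF1, the reader of hemimethylated DNA that recruits DNMT1, had the deepest fall after TET1. Its level was 256, 233 and 257 CPM in parent and 87.7, 89.5 and 92.5 CPM in ADRr libraries. The spread within a group was small beside the gap. UHRF1 fell by 1.47 on the log2 scale (SE 0.056, edgeR adjusted p = 3.3e-17), or 2.76-fold. In bulk RNA, fewer cells that express a gene and less RNA per expressing cell cannot be told apart, which here applies to cycling cells in particular.

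The enzymes of de novo methylation moved in opposite directions. DNMT3B, active in early embryos and often present in tumours, had 17.4, 15.9 and 18.1 CPM in parent and 9.45, 10.9 and 9.60 CPM in ADRr libraries. The groups did not overlap, and the gene fell by 0.78 on the log2 scale (SE 0.113, edgeR adjusted p = 1.5e-06), or 1.72-fold. DNMT3A, the de novo enzyme of many adult tissues, had 14.96, 13.2 and 15.8 CPM in parent and 20.4, 18.3 and 16.7 CPM in ADRr libraries. ADRr replicate 3 stood only slightly above parent replicate 3. The log2 fold change was 0.33 (SE 0.109, 95% interval 0.11 to 0.56, edgeR adjusted p = 0.0098), or 1.26-fold higher. This call rested on single libraries. Without parent replicate 2 the log2 fold change was 0.26 (edgeR adjusted p = 0.043, under the fold threshold), and without ADRr replicate 1 it was 0.26 (edgeR adjusted p = 0.070). DNMT3L, the catalytically inactive partner of the de novo enzymes, had 4 counts in 1 parent library and 0 in the other 5 libraries and was not tested.

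The 3 TET genes showed 3 different patterns. TET3 rose most of all 10 genes. Its level was 32.1, 32.5 and 33.6 CPM in parent and 80.8, 78.3 and 77.5 CPM in ADRr libraries. The SD was 0.770 CPM among parent and 1.72 CPM among ADRr libraries, so the groups were far apart. The log2 fold change was 1.27 (SE 0.067, 95% interval 1.13 to 1.41, edgeR adjusted p = 2.0e-14), or 2.41-fold higher.

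TET2, the family member best known from mutations in blood cancers, had 19.4, 17.7 and 16.5 CPM in parent and 18.3, 15.2 and 16.2 CPM in ADRr libraries. The ranges overlapped. The log2 fold change was -0.11 with a 95% interval of -0.33 to 0.11 (edgeR adjusted p = 0.37). TET1, the CXXC-domain enzyme of pluripotent cells, was rare, with 33, 40 and 29 counts in parent and 10, 4 and 6 counts in ADRr libraries. That was 1.98, 2.53 and 1.65 CPM against 0.556, 0.244 and 0.327 CPM. TET1 fell by 2.41 on the log2 scale (SE 0.403, 95% interval -3.24 to -1.58, edgeR adjusted p = 1.1e-05). It passed the filter through the parent libraries, where it was high, and its interval was wide at these low counts.

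All 3 core subunits of PRC2 were lower in ADRr cells. EZH2, the methyltransferase subunit, had 113, 111 and 110 CPM in parent and 66.3, 66.6 and 69.4 CPM in ADRr libraries. These were among the tightest replicates of the 10 genes. EZH2 fell by 0.72 on the log2 scale (SE 0.058, 95% interval -0.84 to -0.60, edgeR adjusted p = 6.7e-11), or 1.65-fold.

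SUZ12, the subunit that holds the complex together, fell most within the core. It had 133, 140 and 125 CPM in parent and 57.7, 62.1 and 63.1 CPM in ADRr libraries, a log2 fold change of -1.12 (SE 0.063, edgeR adjusted p = 5.6e-14), or 2.18-fold lower. EED, which binds the methylated histone tail and stimulates the enzyme, had 42.2, 50.03 and 44.0 CPM in parent and 29.6, 25.4 and 28.1 CPM in ADRr libraries. It varied more between replicates than EZH2, but its groups did not overlap. EED fell by 0.71 on the log2 scale (SE 0.085, edgeR adjusted p = 7.1e-08), or 1.64-fold.

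Levels of different genes were compared as FPKM, which divides by gene length. That length was all annotated exons of a gene merged, whichever transcripts the cells made. The order of genes and the size of ratios between genes depend on it. In parent cells DNMT1 (49.0 ± 1.69 FPKM, SD, n = 3) and UHRF1 (47.3 ± 2.59) led and overlapped each other. EZH2 (24.1 ± 0.415), SUZ12 (19.9 ± 1.18), EED (6.34 ± 0.562), DNMT3B (3.62 ± 0.232) and TET3 (2.61 ± 0.0547) followed without overlap. DNMT3A (1.19 ± 0.108) and TET2 (1.06 ± 0.0888) overlapped, and TET1 was last (0.216 ± 0.0467). In ADRr cells UHRF1 (17.2 ± 0.487 FPKM) had dropped well below DNMT1 (30.6 ± 0.610) and stood just above EZH2 (14.6 ± 0.407). TET3 (6.31 ± 0.137) had passed DNMT3B (2.12 ± 0.161) and EED (3.88 ± 0.302). No neighbours in the ADRr order overlapped.

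**Figure D2:**
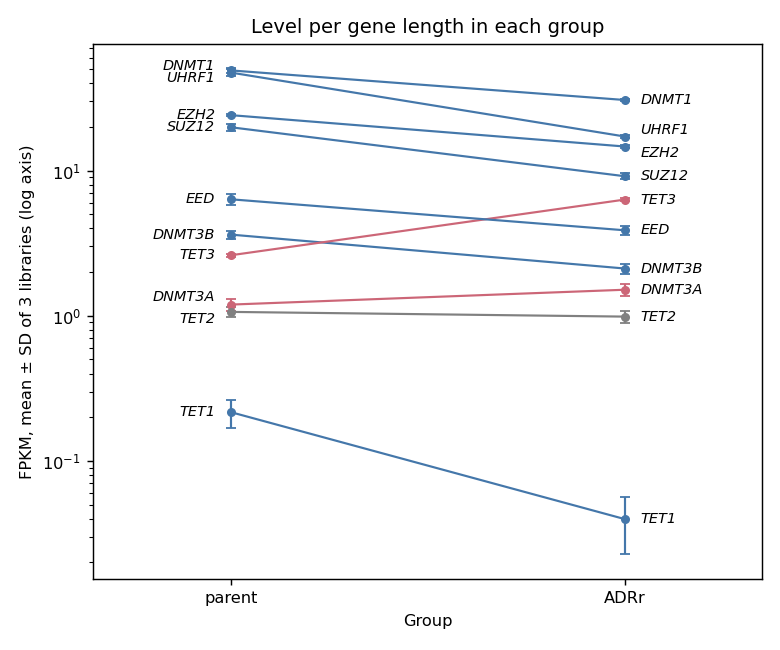
Mean FPKM (level per gene length, log axis) of the 10 genes in parent and ADRr cells, with error bars of 1 SD over 3 libraries, joined by a line that is blue for genes called lower, red for genes called higher and grey for TET2. The TET3 line crosses those of EED and DNMT3B, rising from 2.61 to 6.31 FPKM.

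As families, the 3 DNMT genes summed to 53.8 ± 2.03 FPKM in parent and 34.3 ± 0.791 FPKM in ADRr cells, and DNMT1 made up 91.1 ± 0.304% and 89.4 ± 0.341% of the sum. DNMT3A took 2.22 ± 0.120% of the family in parent and 4.41 ± 0.423% in ADRr cells. Summed, the 3 TET genes went the other way, from 3.89 ± 0.0567 to 7.34 ± 0.244 FPKM, although TET3 alone among them rose. Within them, TET3 took 67.1 ± 2.39% in parent and 86.0 ± 1.09% in ADRr cells, TET2 27.3 ± 1.91% and 13.4 ± 0.877%, and TET1 5.56 ± 1.16% and 0.537 ± 0.212%. The PRC2 core summed to 50.3 ± 1.69 and 27.7 ± 0.769 FPKM.

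The balance between partner and opposing genes was taken as 7 ratios of FPKM within each library. With 3 against 3 libraries the exact two-sided permutation test cannot go below p = 0.1. Each of the 7 ratios reached that value (exact permutation p = 0.1 after Benjamini-Hochberg adjustment over the 7), with no overlap between groups. Most genes in these ratios already differed without overlap on their own, as did 69.2% of tested genes. The lack of overlap in the ratios was thus largely set in advance, and no share was taken for other gene pairs. The largest shifts were in the ratios of EZH2 to summed KDM6 genes and of DNMT1 to summed TET genes. EZH2 relative to the summed H3K27 demethylases KDM6A and KDM6B was 2.47 ± 0.0756 (SD, n = 3) in parent and 0.695 ± 0.0197 in ADRr cells. DNMT1 relative to the summed TET genes was 12.6 ± 0.528 in parent and 4.18 ± 0.179 in ADRr cells. The KDM6 sum rose mainly through KDM6B, from 2.91 to 11.6 FPKM, with KDM6A at 6.84 and 9.49 FPKM. The TET sum rose through TET3, from 2.61 to 6.31 FPKM, while TET1 fell and TET2 was not called. DNMT3A, which rose, was part of neither ratio.

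Within the methylation machinery, the FPKM ratio of DNMT3B to DNMT3A was 3.04 ± 0.0831 in parent and 1.41 ± 0.186 in ADRr cells. It rests on merged exon lengths of 4630 bases for DNMT3B and 12020 bases for DNMT3A. In CPM, without that division, DNMT3B had 17.1 and DNMT3A 14.7 in parent cells. In ADRr cells DNMT3A was the higher, at 18.5 against 9.97 CPM. UHRF1 per DNMT1 went from 0.965 ± 0.0209 to 0.561 ± 0.0241. Within PRC2, EZH2 per SUZ12 went from 1.21 ± 0.0682 to 1.60 ± 0.0561 and EED per SUZ12 from 0.319 ± 0.0205 to 0.426 ± 0.0488. EZH2 relative to EZH1, its paralogue in non-dividing cells, was 3.47 ± 0.253 in parent and 2.34 ± 0.0961 in ADRr cells.

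**Figure D3:**
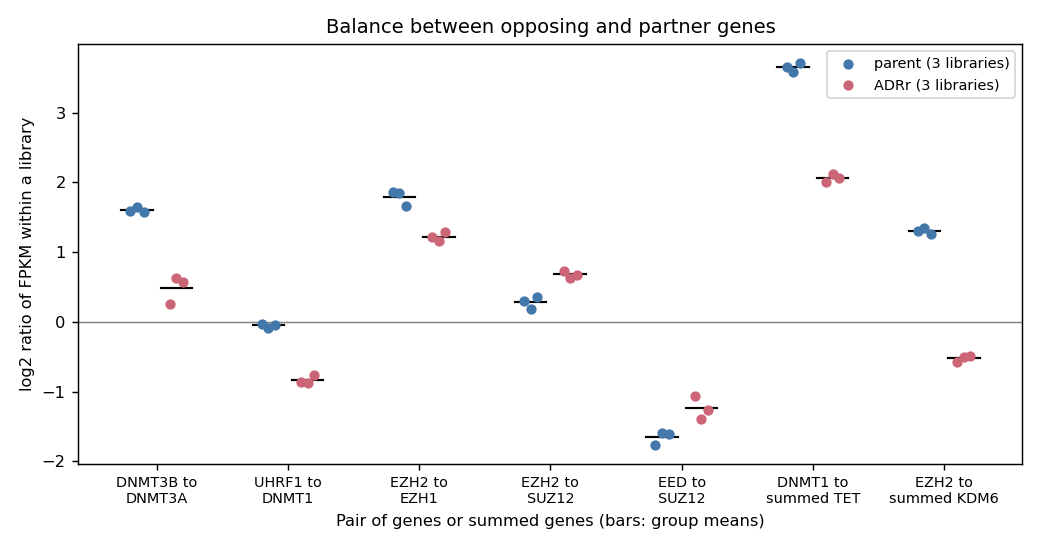
Log2 ratio of FPKM within each library for 7 pairs of genes or summed genes, with 3 parent libraries in blue, 3 ADRr libraries in red and bars at the group means. No pair overlaps between groups, and the mean log2 ratio of EZH2 to summed KDM6 passes from 1.31 to -0.53.

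Genes of DNA replication and mitosis were lower in ADRr cells alongside the 10 genes. Of 35 replication and E2F-linked genes, 34 fell and CCNE1, a G1/S cyclin gene, was not called (log2 fold change 0.12), with a median of -1.23. E2F2, an activating E2F factor, fell by 3.67 on the log2 scale, and ORC1, of the origin recognition complex, by 2.46. Of 20 mitosis genes, 19 fell and BUB1 was not called (-0.12), with a median of -0.97. Over all tested genes, 29.6% were called lower and 29.2% higher. TOP2A, the topoisomerase that ADR targets, fell by 2.19 and PLK1, a mitotic kinase, by 2.03. None of either list was higher by edgeR, at an unadjusted p under 0.05, by DESeq2 or by limma-trend on FPKM (0 in each). The replication genes summed to 4033 to 4105 CPM in parent and 1635 to 1649 CPM in ADRr libraries. Their part in the changes of the 10 genes was not tested.

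Set beside the replication genes, the falls of the 10 genes were mostly the smaller ones. DNMT1, DNMT3B, EZH2 and EED each fell less than 31 of the 35 replication genes did, and SUZ12 less than 21 of them. UHRF1 fell less than 11 of the 35 and TET1 less than 2. Relative to the median of the replication list, the log2 values were 0.55 for DNMT1, 0.51 for EZH2, 0.52 for EED, 0.45 for DNMT3B and 0.10 for SUZ12, while UHRF1 was at -0.24 and TET1 at -1.18.

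**Figure D4:**
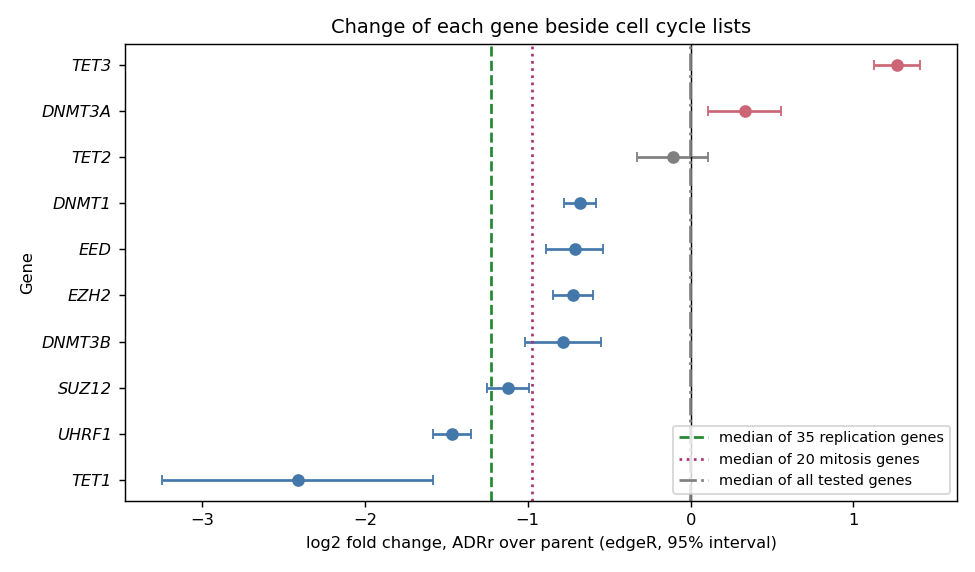
Log2 fold change of ADRr over parent cells for each of the 10 genes (edgeR, points with 95% intervals, red called higher, blue called lower, grey not called), with dashed, dotted and dash-dotted lines at the medians of 35 replication genes (-1.23), 20 mitosis genes (-0.97) and all tested genes (-0.01). UHRF1 and TET1 lie to the left of the replication median, and TET3 and DNMT3A lie to the right of 0.

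DNMT3A and TET3 both lie on the short arm of chromosome 2, at 25227855 to 25342590 and 73986404 to 74108176. Of the 50 tested genes nearest to DNMT3A, 34 were called higher and 3 lower (median log2 fold change 0.66), and of the 50 nearest to TET3, 29 were called higher and 3 lower (median 0.50). DNMT3A was thus 0.33 below its neighbours' median and TET3 0.77 above it. Around SUZ12 on chromosome 17 (31937018 to 32001045), 24 neighbours were called lower and 7 higher, with a median of -0.37. Other members had similar surroundings, with 22 lower and 11 higher around EZH2 (median -0.28). Around TET2 20 were lower and 11 higher (-0.27), and around DNMT1 19 and 7 (-0.13). Over all tested genes, 29.2% were called higher and 29.6% lower. The copy number of these regions was not measured here. For the 7 genes other than DNMT3A, TET3 and SUZ12, the neighbours' medians lay between -0.28 and 0.14.

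Some counts could be shared with other annotated genes. SUZ12P1, a transcribed pseudogene of SUZ12 on the same chromosome, had 197, 189 and 166 counts in parent and 104, 79 and 129 in ADRr libraries and fell by 0.90 on the log2 scale (SE 0.154). Reads of the 2 copies could have been split between them, so the SUZ12 value is uncertain to that extent. DNMT1 shares 83 exon bases with S1PR2, a receptor gene on the same strand, which is 0.847% of its exon length. S1PR2 rose by 0.45 on the log2 scale, at 6.22 to 8.49 CPM. The other genes that overlap a member had at most 8 counts in any library, TET2-AS1 at most 1, and the pseudogenes EZH2P1 and TET1P1 at most 1 and 0.

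Among 10 other PRC2 subunits tested, 6 fell (60%) and 1 rose (10%), against 29.6% and 29.2% of all tested genes. RBBP4, a histone-binding subunit, fell from 99.6 ± 9.60 to 60.3 ± 0.553 CPM (log2 fold change -0.72, SE 0.068). MTF2, which brings PRC2 to CpG islands, fell by 0.50. JARID2, a substrate-mimicking cofactor that guides and stimulates PRC2, rose from 66.4 ± 4.85 to 92.7 ± 4.23 CPM (log2 fold change 0.48). EZH1 had 49.8 ± 3.32 and 44.7 ± 1.07 CPM and was not called (log2 fold change -0.16, edgeR adjusted p = 0.059). The list's median was -0.30.

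Genes whose products remove Polycomb marks were split. Of 5 tested genes for H3K27 demethylases and the PR-DUB complex, which removes ubiquitin from histone H2A, 3 rose (60%) and 1 fell (20%). Over all tested genes, 29.2% were called higher and 29.6% lower. The list summed to 672 to 681 CPM in parent and 667 to 677 CPM in ADRr libraries. KDM6B, a demethylase of H3K27, rose from 21.6 ± 2.68 to 85.7 ± 1.91 CPM (log2 fold change 1.99, SE 0.080), and its paralogue KDM6A from 49.8 ± 2.45 to 68.9 ± 2.60 CPM (0.47). ASXL2, a PR-DUB subunit, rose by 0.83, whereas BAP1, the catalytic subunit, fell from 163 ± 6.21 to 83.1 ± 5.14 CPM (log2 fold change -0.97). ASXL1, another PR-DUB subunit, was not called, but every ADRr library lay below every parent library (log2 fold change -0.21, edgeR adjusted p = 0.00037). Of 22 subunits of PRC1, which reads and reinforces PRC2 marks, 7 rose, 3 fell and 12 were not called. The share that rose (31.8%) was near that over all tested genes, and 13.6% fell. The chromobox gene CBX8 rose by 1.15, while CBX7 fell by 0.69 and PCGF3 by 0.44.

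Cofactors of methylation maintenance were lower together with UHRF1. Of 8 tested, 6 fell (75%, against 29.6% of all tested genes), and edgeR called 0 higher. At an unadjusted p under 0.05, 1 was higher (USP7, which stabilizes DNMT1 and UHRF1, log2 fold change 0.12), and DESeq2 and limma-trend called 0 higher. CDCA7, which recruits the remodeller HELLS, fell from 79.8 ± 3.47 to 26.0 ± 0.982 CPM (log2 fold change -1.62). PCNA, the sliding clamp that binds DNMT1, fell from 195 ± 6.13 to 71.5 ± 0.998 CPM (-1.45). UHRF2, the paralogue of UHRF1, was not called (-0.15). PCNA and HELLS are also genes of replicating cells, and the list's median of -0.91 stood beside -1.23 for the replication list.

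Of 12 readers of CpG sites, 2 were higher (16.7%) and 4 lower (33.3%), against 29.2% and 29.6% of all tested genes. MBD2, which binds methylated DNA, rose from 32.1 ± 0.671 to 59.2 ± 2.31 CPM (log2 fold change 0.88) and MBD1 rose by 0.35, while MBD5 fell by 0.98 and the glycosylase MBD4 by 0.42. Among 13 tested partners of demethylation, 3 rose (23.1%) and 6 fell (46.2%), beside the same shares over all tested genes. OGT, the glycosyltransferase that binds TET proteins, rose from 305 ± 9.46 to 648 ± 17.3 CPM (log2 fold change 1.09), and the stress gene GADD45A rose by 1.22. Its paralogue GADD45B fell from 66.5 ± 6.19 to 32.9 ± 0.925 CPM (-1.02). The base excision enzymes NEIL3 and NEIL1 fell by 1.75 and 1.46.

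In the methyl donor cycle, which supplies S-adenosylmethionine, 6 of 13 tested genes rose (46.2%) and 3 fell (23.1%). Over all tested genes, these shares were 29.2% and 29.6%. SHMT2, the mitochondrial serine hydroxymethyltransferase, rose from 158 ± 4.52 to 328 ± 2.12 CPM (log2 fold change 1.05), and NNMT, which consumes methyl groups on nicotinamide, rose by 0.88. MAT2A, the enzyme that makes S-adenosylmethionine in most tissues, rose by 0.40. SHMT1, the cytosolic form, fell by 0.71 and AHCYL1 by 0.43.

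**Figure D5:**
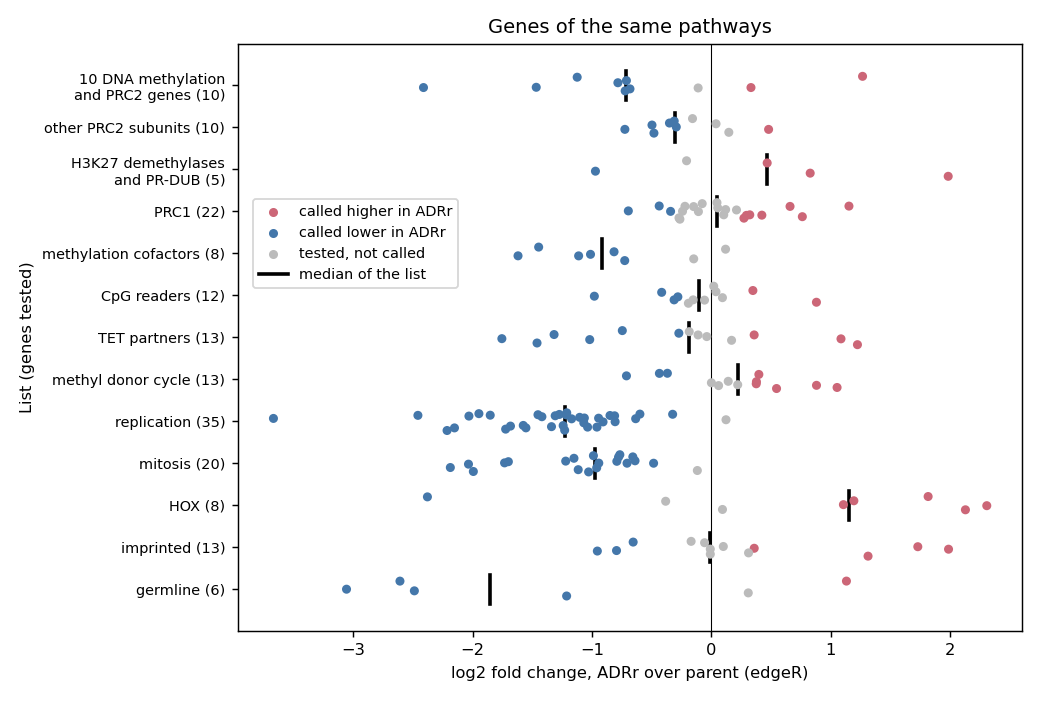
Log2 fold change of ADRr over parent cells (edgeR) for every tested gene of 13 lists, red called higher, blue called lower, grey not called, with a black tick at each list's median and the number tested in brackets. The replication and mitosis lists lie almost wholly left of 0 with medians of -1.23 and -0.97, and the H3K27 demethylase and PR-DUB list has its median at 0.47.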

How the data were processed

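Counts per gene and FPKM values from 6 RNA-seq libraries (3 parent, 3 ADRr) were used. The study's methods name polyA selection, the CORALL kit, paired-end NovaSeq reads, HISAT2 and featureCounts. The submitters' processing notes give HISAT2 2.0.5, featureCounts 1.5.0-p3, fastp, DESeq2 1.20.0 and GRCh38. The sample records describe another kit and RNA amount, and the strand setting is not given in the sources used here. The authors deposited whole-number counts without normalization and FPKM values made from them. All 58735 gene identifiers, positions and lengths were checked against GENCODE 29 and were the same. The count model was fitted in edgeR 4.0.16 under R 4.3.3 (filterByExpr, TMM, robust quasi-likelihood test, group as the only term, Benjamini-Hochberg over 15242 genes). Levels are TMM-scaled CPM. The fit was tested on simulated data. DESeq2 1.42.0, limma-trend (limma 3.58.1) on log2 FPKM, other scalings, filters and thresholds, a replicate block and each library left out were alternatives.

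Genes were named as follows: the 10 members, the 2 strongest increases and 2 strongest decreases called in each list, genes used in ratios, and overlapping genes or pseudogenes of members. For TET3 and TET1, the called members with the largest increase and decrease, the 3 tested genes with the closest profile were also named. Other named list genes (USP7, UHRF2, CCNE1, BUB1, MAT2A, ASXL1, GADD45B and the cell markers) were chosen after their values were seen. A gene that the rule selects is not reported here. The members and all lists were chosen with earlier results of these data known.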

Additional observations from a re-analysis of the deposited data

How the results depend on the processing

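Over 20 settings, UHRF1 and TET3 kept their direction and call in each. TET2 was never called, at -0.18 to -0.05. The fold threshold of 1.2 is the study's, read as linear. Where it was set to 1.2 on the log2 scale, 1113 genes were higher and 969 lower, and 1 of the 10 genes (TET3) was called higher and 2 (UHRF1, TET1) lower. Members called higher were 1 rather than 2 in the 3 limma-trend settings on FPKM and under edgeR's glmTreat, where DNMT3A was not called, and 1 to 2 with each library left out. DNMT3A ranged from 0.19 to 0.40 (adjusted p 0.0034 to 0.19). TET1 dropped out of the test under 3 of the filters, which left 6 members called lower. With limma-trend on log2(FPKM + 1) and no filter it was tested but missed the fold threshold (-0.23, adjusted p 0.0072), and 6 were again called lower. Relative to the replication median, DNMT1 (0.55), DNMT3B (0.45), EZH2 (0.51), SUZ12 (0.10) and EED (0.52) turned positive, and relative to its neighbours DNMT3A turned to -0.33, both by construction of the reference.

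Same-numbered libraries did not deviate together (r = 0.0074, -0.021 and -0.046). These values showed no pairing by number, but so few libraries cannot exclude one. With a replicate block, 4409 genes were higher and 4470 lower, and members called higher and lower stayed at 2 and 7. Depth limits TET1 most, with 4 to 40 counts per library.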

Other observations

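HOX and germline genes, which PRC2 or DNA methylation keep silent in many tissues, were mostly unexpressed in both groups. Of 39 HOX genes, 17 had no count in any library and 8 were tested. Of these, 5 were higher (62.5%) and 1 was lower (12.5%) in ADRr cells, against 29.2% and 29.6% of all tested genes. HOXB9 rose from 16.5 ± 0.804 to 72.1 ± 3.15 CPM (SD, n = 3, log2 fold change 2.13, edgeR adjusted p = 1.6e-17). HOXB7 rose from 0.443 ± 0.170 to 2.22 ± 0.597 CPM (log2 fold change 2.31), and HOXA13 fell from 1.21 ± 0.445 to 0.225 ± 0.190 CPM (-2.38). HOX genes summed to 28.9 to 30.4 CPM in parent and 94.4 to 99.4 CPM in ADRr libraries. HOXD1 was called higher although its groups overlapped. The genes at low counts passed the filter through the group in which they were high.

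Of 28 germline genes, 10 had no count and 6 were tested, of which 4 fell (66.7%) and 1 rose (16.7%). MAGEC2, a cancer-testis antigen, fell from 14.3 ± 2.19 to 1.72 ± 0.507 CPM (log2 fold change -3.06), and MAGEB2 from 2.35 ± 0.361 to 0.374 ± 0.243 CPM (-2.61). MAEL, of the piRNA pathway, rose from 2.45 ± 0.547 to 5.37 ± 0.963 CPM (1.13). Of 24 imprinted genes, 13 were tested, 4 rose (30.8%) and 3 fell (23.1%), near the shares of 29.2% and 29.6% over all tested genes. CDKN1C, a cyclin-dependent kinase inhibitor, rose from 3.58 ± 0.506 to 14.3 ± 0.662 CPM (1.99) and PHLDA2, its neighbour in the same imprinted domain, from 38.3 ± 6.75 to 128 ± 11.9 CPM (1.73). MEST fell by 0.95 and PEG10 by 0.79.

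The tested genes whose centred profiles lay closest to TET3 over the 6 libraries were CYLD, MICAL1 and GADD45A. Their root mean square differences were 0.0315, 0.0329 and 0.0382 on the log2 scale. For TET1 the closest genes were TMPO-AS1 (0.162), SOX18 (0.169) and MSI2 (0.181). With 3 libraries in each group, this measure mostly picks genes with about the same change between groups. The log2 fold changes were 1.25 for CYLD, 1.28 for MICAL1 and 1.22 for GADD45A, beside 1.27 for TET3. Such changes were common, as 58.8% of tested genes were called. Shared regulation was not tested.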
